A study of Homo sapiens with 3 samples.

Results

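The genes described here are 42 genes of the amino acid response, chosen by name out of 30866 gene symbols in the deposited table. They comprise 20 genes of cytosolic aminoacyl-tRNA synthetases, the tRNA export receptor XPOT, 6 genes of serine, asparagine and one-carbon synthesis, 4 of proline, alanine and transsulfuration metabolism, 6 stress effectors and secreted factors, and 5 transcription factors of the basic leucine zipper (bZIP) family. RNA was sequenced from 3 populations of HCC827, an established line of human non-small cell lung cancer whose growth is driven by a mutant EGF receptor, and all 3 carried the ClonTracer library of DNA barcodes as a polyclonal pool. The dual-resistant population came from erlotinib-resistant cells kept a further 10 days in 2 µM erlotinib, which blocks the kinase of the EGF receptor, plus 0.2 µM crizotinib, which blocks the receptor kinase MET. The erlotinib-resistant population had been kept in 2 µM erlotinib for 47 days, and the vehicle population in 0.1% DMSO for 4 days. Each population is 1 library, so no difference below has an error or a test, and drug, resistance and time in culture differ together between the populations and cannot be told apart.

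When amino acids run short, uncharged tRNA activates the kinase GCN2, which phosphorylates the initiation factor eIF2. Most translation then slows, while that of ATF4 rises, because short reading frames ahead of its coding sequence hold it back under normal conditions. ATF4 is a bZIP factor that pairs with C/EBP proteins and turns on genes for amino acid synthesis, amino acid uptake and tRNA charging. Stress in the endoplasmic reticulum reaches the same factor through the kinase PERK. Because ATF4 is controlled mainly at translation, its RNA does not report its protein.

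ATF4 with a C/EBP partner binds a composite element, the C/EBP-ATF response element, whose core reads TGATGNAA. This core was searched on both strands of the RefSeq windows that run from 250 bases before to 50 bases after each gene start (GRCh38.p14), in which 34 of the 42 genes have at least 1 window. It was present for 10 of the 34 genes (29.4%), against 1217 of all 27305 genes that have a window (4.46%) and 293 of 10327 genes with at least 1 FPKM in a library (2.84%). The genes were listed because of what is known of this response, so this share describes the list. Genes with no window were DARS, LARS, VARS, YARS, PSPH, SHMT2, PYCR1 and GPT2. The matches of 8 genes are shown with 10 bases on either side, each on the strand that reads the core, which is in capitals, so that the core and its surroundings can be compared.

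ATF3: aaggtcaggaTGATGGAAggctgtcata
AARS: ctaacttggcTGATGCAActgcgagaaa
MARS: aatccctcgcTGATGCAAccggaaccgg
CARS: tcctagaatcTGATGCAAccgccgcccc
GARS: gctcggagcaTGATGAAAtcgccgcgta
IARS: cgcacggaggTGATGCAAcgcgctgaaa
NARS: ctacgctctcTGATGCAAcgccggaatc
TARS: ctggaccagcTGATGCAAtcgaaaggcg

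The variable base of the core was C in 6 of the 8, A in GARS and G in ATF3. Of the genes that were lower by at least 2-fold in dual-resistant cells than in vehicle cells and had a window, 4 of 16 held the core (CHAC1, ASNS, AARS and MARS), against 6 of the 18 others with a window. The core was thus not more frequent among the listed genes with the larger differences. Counted along the direction of the gene, the matches in CARS, IARS, MARS, NARS and TARS began within 20 bases of the annotated start. Those in ATF3 and AARS began at positions -191 and -187 from it, counted this way whichever strand reads the core. A match is only a match of letters, and a gene without one in this window may hold the element elsewhere.

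Values are FPKM as deposited, which are per length of transcript, so levels can be set beside each other within a library. The sum of FPKM over all genes was 494817 in dual-resistant, 528920 in erlotinib-resistant and 596084 in vehicle cells. Keratin genes of epithelial cells (KRT8, KRT18 and KRT19) stood between 424 and 1261 FPKM in all 3 libraries, and 5 markers of leukocytes and endothelium at 0.791 FPKM or less, with CD3E at 0 throughout. The epithelial adhesion gene EPCAM stood at 41.1 FPKM in dual-resistant, 345 in erlotinib-resistant and 306 in vehicle cells, and the mesenchymal filament gene VIM at 414, 23.3 and 7.04 FPKM in the same libraries. Dual-resistant cells thus also differed from the other 2 populations in their epithelial and mesenchymal genes, and the part of that difference in the results below was not tested. In cell populations, fewer cells that express a gene and less RNA per cell cannot be told apart.

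All 42 genes were above 5 FPKM in every library, so none depends on a filter for low values. Dual-resistant cells were the lowest of the 3 for 32 of the 42 genes, erlotinib-resistant cells for 7 and vehicle cells for 3. Together the 42 genes made up 0.578% of the summed FPKM in dual-resistant cells, 1.07% in erlotinib-resistant cells and 1.18% in vehicle cells. Differences are given as log2 differences of FPKM + 1, and a gene is called higher or lower at a difference of at least 1 in size, which is 2-fold. Folds are on the same FPKM + 1 scale.

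In dual-resistant against vehicle cells, 19 of the 42 genes were lower and 0 higher, where 10.4% of the 13378 genes compared were lower and 11.0% higher. The median difference of the 42 was -0.84, against -0.01 over all genes compared. In dual-resistant against erlotinib-resistant cells, 16 of 42 were lower and 2 higher, where 7.22% of 13385 genes were lower and 10.1% higher, and the medians were -0.64 and -0.03. In erlotinib-resistant against vehicle cells, 4 of 42 were lower and 0 higher, where 6.03% of 13381 genes were lower and 3.81% higher, and the medians were -0.18 and 0.00. The step into dual resistance thus held most of the genes that passed 2-fold. These comparisons share libraries and are not independent of each other.

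With FPKM made to add up equally in every library, the median of all genes was higher by 0.14 in erlotinib-resistant and by 0.25 in dual-resistant cells against vehicle. Under it 17 of the 42 genes were lower and 0 higher in dual-resistant cells than in vehicle, and no gene called as deposited changed its direction, while EPRS, FARSA, KARS and NARS, with differences of at most 0.14 in size, changed theirs. The share of higher genes among all calls moved under this scaling to 53.8% from 38.7% for erlotinib-resistant against vehicle, and to 66.0% from 51.3% for dual-resistant against vehicle. This scaling also raised every value, so the 1 FPKM added and the minimum of 1 FPKM had less weight in it.

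**Figure D1:**
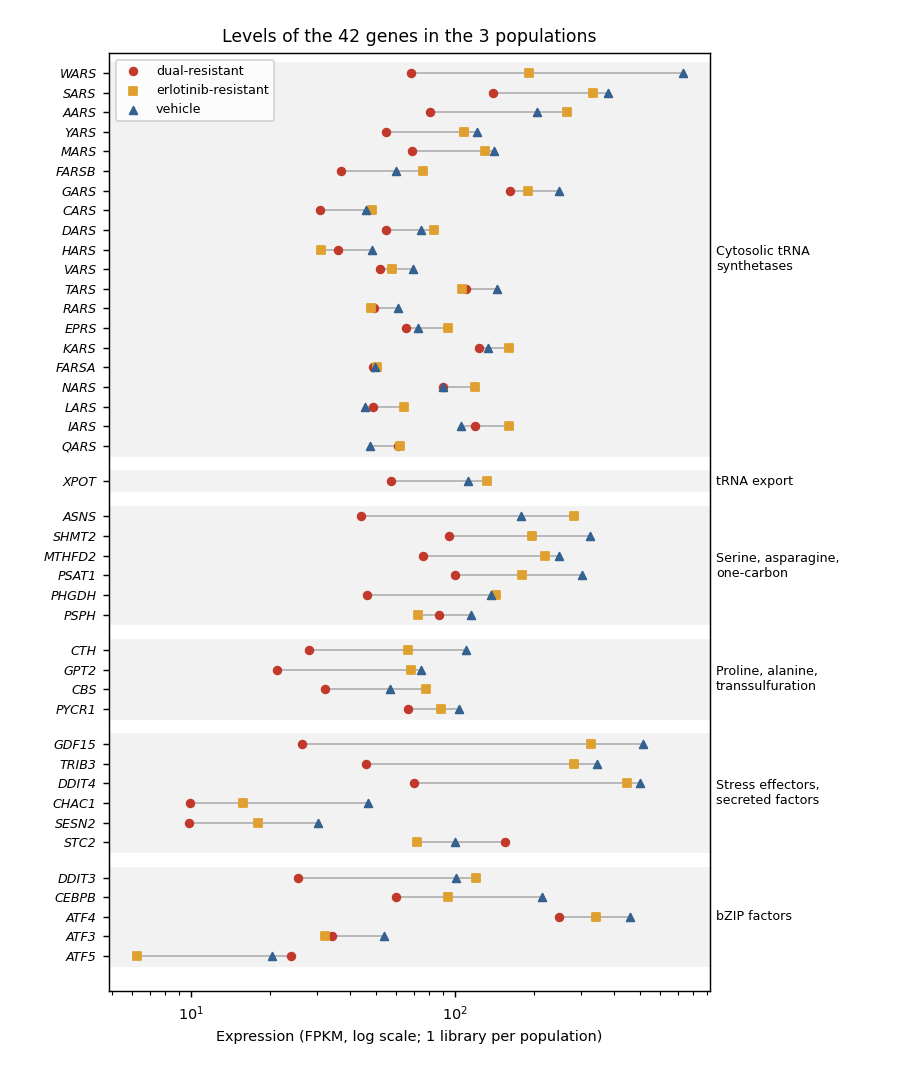
Level of each of the 42 genes in FPKM (log axis) in dual-resistant (circles), erlotinib-resistant (squares) and vehicle (triangles) cells, 1 library each, with genes grouped by role and ordered by their difference between dual-resistant and vehicle cells. The circle is the leftmost symbol for 32 of the 42 genes, and the widest span is that of GDF15, at 26.3 FPKM in dual-resistant and 515 FPKM in vehicle cells.

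ATF4 (Entrez ID 468, at chr22:39916569-39918691 of GRCh37) stood at 248 FPKM in dual-resistant, 343 in erlotinib-resistant and 460 in vehicle cells. It was the highest of the 42 genes in dual-resistant cells, and its difference from vehicle, -0.89 on the log2 scale, did not reach 2-fold. DDIT3, which encodes the bZIP factor CHOP that acts after ATF4 in prolonged stress, stood at 25.4 FPKM in dual-resistant, 119.9 in erlotinib-resistant and 101 in vehicle cells. It was thus 4.58-fold lower in dual-resistant than in erlotinib-resistant cells, and erlotinib-resistant cells differed from vehicle cells by only 0.24 on the log2 scale. CEBPB, a C/EBP partner of ATF4, was at 59.6 FPKM in dual-resistant, 94.3 in erlotinib-resistant and 213 in vehicle cells. Its larger difference lay at the other step, 2.25-fold lower in erlotinib-resistant cells than in vehicle.

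ATF5, a bZIP factor whose translation is controlled much like that of ATF4, was one of the few genes with its lowest value in erlotinib-resistant cells. It stood at 23.9 FPKM in dual-resistant, 6.22 in erlotinib-resistant and 20.3 in vehicle cells. It was therefore 2.95-fold lower in erlotinib-resistant cells than in vehicle and 3.46-fold higher in dual-resistant than in erlotinib-resistant cells, so that dual-resistant cells ended 0.23 log2 units above vehicle. Its span overlaps NUP62 by 1030 bases, a gene at 33.9, 29.4 and 27.4 FPKM in dual-resistant, erlotinib-resistant and vehicle cells, and reads there may be shared. ATF3, a stress-induced bZIP factor that can repress its targets, stood at 34.3, 32.1 and 53.9 FPKM in the same libraries, within 2-fold in every comparison. Of the 5 bZIP genes, 2 were lower and 0 higher in dual-resistant cells than in vehicle, with a median of -0.89.

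Between dual-resistant cells and either other population, the stress effectors and secreted factors had the lowest median of the role groups. GDF15 (Entrez ID 9518, at chr19:18496968-18499986 of GRCh37), a secreted cytokine of the TGF-beta family that is released under cell stress, stood at 26.3 FPKM in dual-resistant, 328 in erlotinib-resistant and 515 in vehicle cells. It was 18.9-fold lower in dual-resistant cells than in vehicle, the largest difference among the 42 genes. TRIB3 (Entrez ID 57761, at chr20:361308-378203 of GRCh37), a pseudokinase that feeds back on ATF4, stood at 46.1, 283 and 345 FPKM in dual-resistant, erlotinib-resistant and vehicle cells. DDIT4, also called REDD1, an inhibitor of the growth kinase complex mTORC1, stood at 70.0 FPKM in dual-resistant, 448 in erlotinib-resistant and 503 in vehicle cells. For these 3 genes erlotinib-resistant and vehicle cells were within 2-fold of each other, at log2 differences of -0.65, -0.28 and -0.17, and dual-resistant cells lay far below both.

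CHAC1 and SESN2 had another course. CHAC1 (Entrez ID 79094, at chr15:41245636-41248717 of GRCh37), which encodes an enzyme that breaks down glutathione, stood at 9.93 FPKM in dual-resistant, 15.7 in erlotinib-resistant and 46.7 in vehicle cells. It was already 2.85-fold lower in erlotinib-resistant cells than in vehicle, and a further 1.53-fold lower in dual-resistant cells. SESN2, a leucine sensor that restrains mTORC1, stood at 9.82 FPKM in dual-resistant, 17.9 in erlotinib-resistant and 30.2 in vehicle cells, with neither step alone reaching 2-fold. STC2, a secreted glycoprotein hormone, was highest in dual-resistant cells, at 154 FPKM in dual-resistant, 71.8 in erlotinib-resistant and 100.2 in vehicle cells. It was 2.13-fold higher in dual-resistant than in erlotinib-resistant cells. In all, 5 of these 6 genes were lower and 0 higher in dual-resistant cells than in vehicle, with a median of -2.48.

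**Figure D2:**
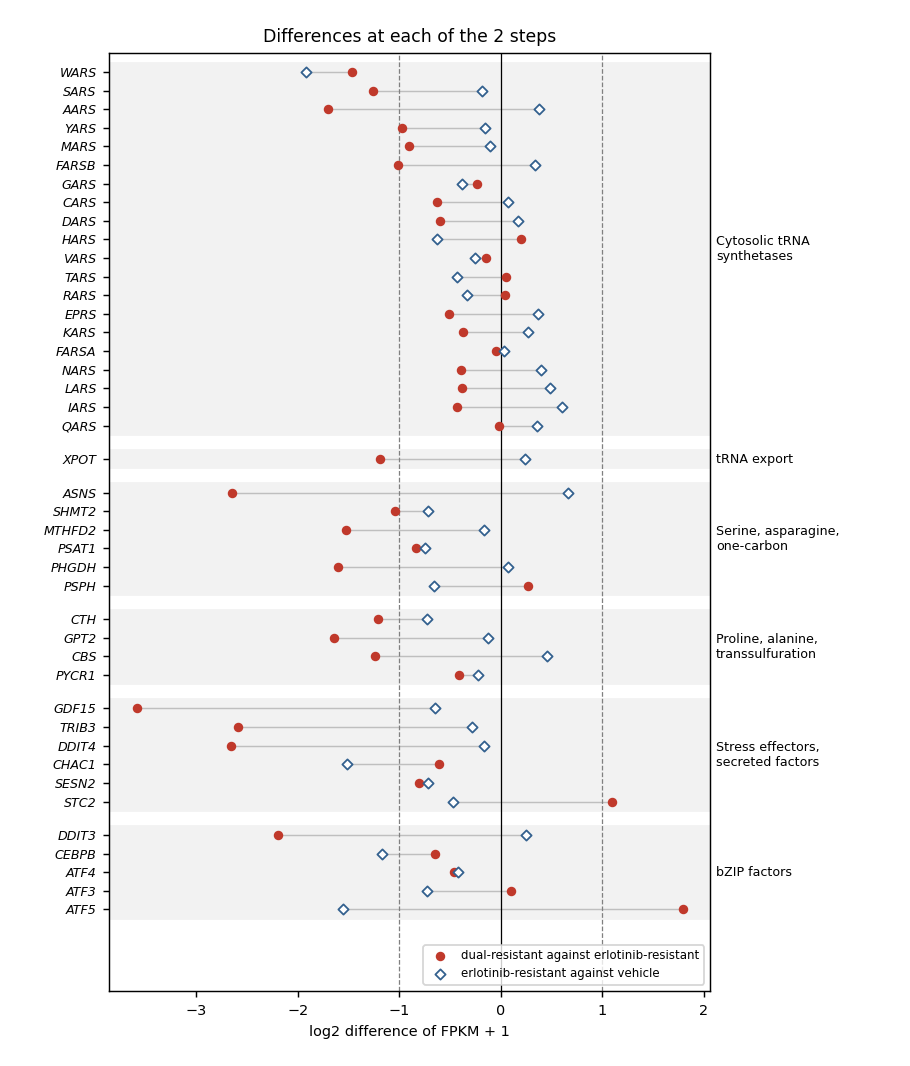
Log2 difference of FPKM + 1 for each of the 42 genes between dual-resistant and erlotinib-resistant cells (filled circles) and between erlotinib-resistant and vehicle cells (open diamonds), with dashed lines at a difference of 1 in either direction. Circles pass the left line for 16 genes and diamonds for 4 (WARS, ATF5, CHAC1 and CEBPB), and 2 circles (ATF5 and STC2) pass the right line.

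Of the genes of serine, asparagine and one-carbon synthesis, 5 of 6 were lower and 0 higher in dual-resistant cells than in vehicle, with a median of -1.64. ASNS (Entrez ID 440, at chr7:97481429-97501854 of GRCh37), which encodes asparagine synthetase, stood at 44.0 FPKM in dual-resistant, 282 in erlotinib-resistant and 177 in vehicle cells. It had the largest positive difference of the 42 genes between erlotinib-resistant and vehicle cells, 0.67 on the log2 scale, and was then 6.28-fold lower in dual-resistant cells. Of the 6 expressed genes that follow ASNS on chromosome 7, with at least 5 FPKM in a library, 5 were higher by at least 2-fold in erlotinib-resistant cells than in vehicle, with a median of 1.07, as were 2 of the 6 that precede it, with a median of 0.48. In dual-resistant against erlotinib-resistant cells the medians of the same genes were -0.74 and -0.26, against -2.65 for ASNS. These neighbours were looked up after the value of ASNS was seen, and their part in its difference was not tested.

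Serine is made from a glycolytic intermediate in 3 steps, catalysed by PHGDH, PSAT1 and PSPH. PHGDH stood at 46.4 FPKM in dual-resistant, 143 in erlotinib-resistant and 136 in vehicle cells, a difference seen in dual-resistant cells alone. PSAT1 stood at 100.3, 179.6 and 302 FPKM in dual-resistant, erlotinib-resistant and vehicle cells and was lower at each step, by 1.78-fold in dual-resistant against erlotinib-resistant and by 1.68-fold in erlotinib-resistant against vehicle cells. PSPH, the phosphatase of the last step, stood at 86.8, 72.1 and 115 FPKM in the same libraries and was within 2-fold in every comparison. The span given for PSPH in the table contains the strongly expressed genes CCT6A, SUMF2 and CHCHD2, at 364 to 1834 FPKM, so its value is less certain than the others. The spans of KARS and YARS share 907 and 591 bases with TERF2IP and S100PBP, so reads there may be shared as well. These 2 genes stood at lower levels than KARS and YARS, at 31.5 to 35.2 FPKM for TERF2IP and 0 to 5.61 FPKM for S100PBP.

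SHMT2 and MTHFD2 encode mitochondrial enzymes that pass serine carbon to folate. SHMT2, which splits serine into glycine and a one-carbon unit, stood at 94.6 FPKM in dual-resistant, 196 in erlotinib-resistant and 325 in vehicle cells. MTHFD2, which oxidises that unit on folate, stood at 75.5, 219.9 and 248 FPKM in the same libraries. Both were lower by over 3-fold in dual-resistant cells than in vehicle, at 3.41-fold and 3.25-fold. The mitochondrial folate genes MTHFD1L, at 22.3 and 27.0 FPKM, and MTHFD2L, at 7.23 and 9.37 FPKM in dual-resistant and vehicle cells, were within 2-fold. The cytosolic counterparts were also within 2-fold, with SHMT1 at 19.2 and 10.5 FPKM and MTHFD1 at 47.3 and 53.1 FPKM in dual-resistant and vehicle cells. SHMT2 was 2.06-fold lower in dual-resistant than in erlotinib-resistant cells as deposited, and its log2 difference was -0.95 once the sums of FPKM were made equal.

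The genes of the other metabolic enzymes were also mostly lower. CTH, which makes cysteine from cystathionine, stood at 28.0 FPKM in dual-resistant, 66.2 in erlotinib-resistant and 110.5 in vehicle cells. CBS, which makes the cystathionine, stood at 32.3, 77.9 and 56.7 FPKM in the same libraries. GPT2, a mitochondrial alanine aminotransferase, stood at 21.1, 68.2 and 74.4 FPKM, again in that order. All 3 were lower by at least 2-fold in dual-resistant than in erlotinib-resistant cells, by 2.32-fold, 2.37-fold and 3.13-fold. Against vehicle CTH and GPT2 were lower, and CBS, at -0.79 on the log2 scale, was not. PYCR1, which completes proline synthesis in mitochondria, stood at 66.6 FPKM in dual-resistant, 88.8 in erlotinib-resistant and 104 in vehicle cells, within 2-fold throughout.

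The synthetases, which join each amino acid to its tRNA, were uneven. Of the 20 cytosolic genes, 5 were lower and 0 higher in dual-resistant cells than in vehicle, 15 lay within 2-fold, and the median was -0.42, against 14 of 22 lower among the other listed genes, with a median of -1.64. Against erlotinib-resistant cells 4 of 20 were lower and 0 higher (median -0.41), among them FARSB at the limit. In erlotinib-resistant against vehicle cells 1 of 20 was lower and 0 higher (median 0.05). Of all genes compared, 10.4% were lower and 11.0% higher in dual-resistant cells than in vehicle. These shares were 7.22% and 10.1% against erlotinib-resistant cells, and 6.03% and 3.81% in erlotinib-resistant against vehicle cells. The count of 1 of 20 thus does not set the synthetases apart. With the sums of FPKM made equal, the synthetase median was -0.15 for dual-resistant against vehicle cells and 0.22 for erlotinib-resistant against vehicle cells.

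WARS (Entrez ID 7453, at chr14:100800125-100842680 of GRCh37), the tryptophanyl-tRNA synthetase, stood apart from the rest. It was the highest of all 42 genes in vehicle cells, at 68.4 FPKM in dual-resistant, 191 in erlotinib-resistant and 727 in vehicle cells, and thus 10.5-fold lower in dual-resistant cells than in vehicle. It was also the only synthetase gene lower by at least 2-fold in erlotinib-resistant against vehicle cells, at 3.78-fold lower. WARS is known to be induced by interferon gamma as well as by ATF4. Of 10 other genes known to be induced by interferon gamma, a list made after the value of WARS was seen, 5 were lower and 0 higher in erlotinib-resistant cells than in vehicle, among them IDO1, which encodes a tryptophan-degrading enzyme, at 0.655 FPKM in erlotinib-resistant and 11.4 FPKM in vehicle cells. In this comparison IDO1 passed the minimum of 1 FPKM through vehicle cells alone, so the filter fixed its direction. In dual-resistant against erlotinib-resistant cells 0 of the 10 were lower and 2 higher, where WARS was 2.77-fold lower. Of the 2 higher, CXCL10, at 1.84 FPKM in dual-resistant and 0.116 FPKM in erlotinib-resistant cells, passed the minimum through dual-resistant cells alone, so its direction was fixed as well. What these genes share with the difference in WARS was not tested.

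AARS, SARS, YARS and MARS were the other 4 synthetase genes lower in dual-resistant cells than in vehicle. AARS, the alanyl-tRNA synthetase, stood at 80.6 FPKM in dual-resistant, 265 in erlotinib-resistant and 204 in vehicle cells. SARS, the seryl-tRNA synthetase, stood at 139 FPKM in dual-resistant, 334 in erlotinib-resistant and 379 in vehicle cells. Both were lower by over 2-fold in dual-resistant cells than in either other library. YARS, the tyrosyl-tRNA synthetase, stood at 54.8, 108 and 121 FPKM in dual-resistant, erlotinib-resistant and vehicle cells, and MARS, the methionyl-tRNA synthetase, at 69.0, 129.8 and 140.1 FPKM. With equal sums of FPKM, YARS and MARS were no longer called lower against vehicle, at -0.87 and -0.75 on the log2 scale, and MARS was also at -0.97 with libraries scaled by their median ratio. MARS and DDIT3 share 964 bases at chr12:57910371-57911334 of GRCh37, where they run on opposite strands, and the strandedness of the libraries is not given in the sources used here, so reads there could be split between them.

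XPOT, which carries mature tRNAs out of the nucleus, stood at 57.2 FPKM in dual-resistant, 132 in erlotinib-resistant and 112 in vehicle cells, and was 2.29-fold lower in dual-resistant than in erlotinib-resistant cells. FARSB stood at 37.0, 75.8 and 59.7 FPKM in the same libraries. Its partner FARSA, the other subunit of phenylalanyl-tRNA synthetase, stood at 49.0, 50.8 and 49.8 FPKM, so that the RNAs of the 2 subunits of 1 enzyme differed unequally. The call for FARSB against erlotinib-resistant cells, at 2.02-fold lower, lies at the limit and was lost under both other scalings, at -0.93 and -0.97 on the log2 scale, and with a pseudocount of 5 FPKM, at -0.94.

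The remaining 13 synthetase genes were within 2-fold in all 3 comparisons. GARS, the highest of them in each library, stood at 161 FPKM in dual-resistant, 189.8 in erlotinib-resistant and 248 in vehicle cells, and HARS, the lowest in erlotinib-resistant cells, at 35.9, 31.1 and 48.6 FPKM. IARS, KARS, NARS, LARS and EPRS, for isoleucine, lysine, asparagine, leucine, and glutamate with proline, were highest in erlotinib-resistant cells, at 160.2, 159.9, 118.6, 64.2 and 93.8 FPKM. QARS, for glutamine, was at 60.9 FPKM in dual-resistant, 61.6 in erlotinib-resistant and 47.8 in vehicle cells, the largest positive difference of a synthetase between dual-resistant and vehicle cells, at 0.34. TARS and GARS, for threonine and glycine, were highest in vehicle, as were RARS, VARS and HARS. CARS and DARS, for cysteine and aspartate, were lowest in dual-resistant cells, at 30.9 and 54.7 FPKM against 46.1 and 74.1 FPKM in vehicle. They too were highest in erlotinib-resistant cells, at 48.4 and 83.2 FPKM.

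In animal cells 8 of these synthetases sit in 1 multi-synthetase complex, held by the scaffold proteins encoded by AIMP1, AIMP2 and EEF1E1. Of the 8 genes (DARS, EPRS, IARS, KARS, LARS, MARS, QARS and RARS), 1 was lower and 0 higher in dual-resistant cells than in vehicle, with a median of -0.13 and differences between -1.01 and 0.34. The gene called was MARS. Its call was lost with equal sums of FPKM, at -0.75, with scaling by the median ratio, at -0.97, and with a pseudocount of 5 FPKM, at -0.97. Of the 12 genes outside the complex, 4 were lower and 0 higher, with a median of -0.59. Of all genes compared, 10.4% were lower and 11.0% higher, so the count for the complex does not set it apart. None of the 3 scaffold genes was called in any comparison, and their summed level was 108 FPKM in dual-resistant, 118 in erlotinib-resistant and 105 in vehicle cells. This split of the synthetases was made after their values were seen and has no test.

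Mitochondria use a separate set of synthetases, most of them encoded by their own nuclear genes. Of 17 such genes, 0 were lower and 0 higher in dual-resistant cells than in vehicle, with a median of 0.15. Of all genes compared, 10.4% were lower and 11.0% higher. In dual-resistant against erlotinib-resistant cells 0 of the 17 were lower and 1 higher, where 7.22% of all genes were lower and 10.1% higher. The gene called was CARS2, at 27.8 FPKM in dual-resistant and 12.6 FPKM in erlotinib-resistant cells. The summed level of the 17 genes was 326 FPKM in dual-resistant, 306 in erlotinib-resistant and 277 in vehicle cells. For the cytosolic set it was 1499, 2378 and 2867 FPKM, of which WARS alone was 727 FPKM in vehicle. Without WARS the cytosolic sums were 1431, 2187 and 2139 FPKM in dual-resistant, erlotinib-resistant and vehicle cells, so that without it erlotinib-resistant and vehicle cells were close. GARS, KARS and QARS have no partner among the 17 genes and count in the cytosolic sums alone. Paired by amino acid, the cytosolic gene had the lower difference in 15 of 18 pairs and lay at least 1 log2 unit below its mitochondrial partner in 5, those for tryptophan, serine, tyrosine, cysteine and alanine. The clearest contrast apart from tryptophan was serine, with SARS at -1.44 and SARS2 at 0.33.

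**Figure D3:**
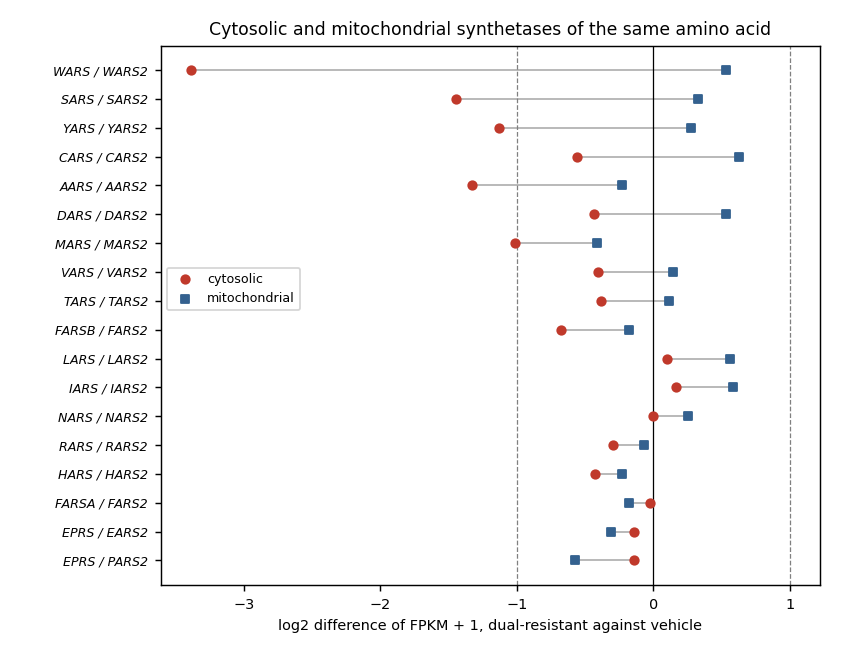
Log2 difference of FPKM + 1 between dual-resistant and vehicle cells for 18 pairs of a cytosolic (circles) and a mitochondrial (squares) synthetase gene for the same amino acid, ordered by the gap between them, with dashed lines at a difference of 1 in either direction. The circle lies left of the square in 15 pairs, most widely for WARS (-3.39) and WARS2 (0.53), and no square passes a dashed line. EPRS and FARS2 each stand in 2 pairs.

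Other genes of the pathway were read from lists made by role. Of 17 other ATF4 targets and partners compared, 10 were lower and 0 higher in dual-resistant cells than in vehicle, with a median of -1.08. VEGFA, an angiogenic factor that hypoxia also induces, stood at 22.2 FPKM in dual-resistant and 247 in vehicle cells. PCK2, the mitochondrial form of phosphoenolpyruvate carboxykinase, stood at 11.5 against 106 FPKM in the same libraries, and NUPR1, a stress-induced nuclear protein gene, at 11.9 against 102 FPKM. CEBPG, which encodes a C/EBP partner of ATF4, stood at 15.9 FPKM in dual-resistant, 37.1 in erlotinib-resistant and 37.0 in vehicle cells. In dual-resistant against erlotinib-resistant cells 4 of the 17 were lower and 1 higher, and in erlotinib-resistant against vehicle cells 3 were lower and 0 higher. The lower genes in both comparisons with vehicle include INHBE, at 0.240 FPKM in dual-resistant, 0.758 in erlotinib-resistant and 5.14 in vehicle cells, which passed the minimum of 1 FPKM through vehicle cells alone, so the filter fixed its direction.

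Of 11 amino acid transporter genes compared, 4 were lower and 0 higher in dual-resistant cells than in vehicle, with a median of -0.59. The glycine transporter gene SLC6A9 stood at 5.50 FPKM in dual-resistant, 25.9 in erlotinib-resistant and 52.5 in vehicle cells. The glutamine transporter gene SLC1A5 stood at 63.2, 136 and 189 FPKM in the same libraries. SLC3A2, the heavy chain shared by several amino acid exchangers, stood at 238, 383 and 578 FPKM and its light chain SLC7A5 at 323, 560 and 486 FPKM, so that the heavy chain was lower by at least 2-fold against vehicle and the light chain, at -0.59, was not. SLC7A11, the cystine exchanger, was within 2-fold throughout, at 7.89, 16.3 and 8.31 FPKM in dual-resistant, erlotinib-resistant and vehicle cells.

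The genes upstream of ATF4 were mostly within 2-fold. Of 14 genes for eIF2 kinases, eIF2, its exchange factor eIF2B and its phosphatase, 1 was lower and 0 higher in dual-resistant cells than in vehicle, with a median of -0.27. Of all genes compared, 10.4% were lower and 11.0% higher, so this count does not set the list apart. Below 0 were 11 of the 14, among them EIF2AK2, EIF2S2 and EIF2S1, at -0.99, -0.90 and -0.85 on the log2 scale. Above 0 were 3, with EIF2AK4 at 0.78. The gene called lower was EIF2B2, a subunit of eIF2B, at 15.2 FPKM in dual-resistant, 31.6 in erlotinib-resistant and 36.5 in vehicle cells. EIF2AK4, which encodes GCN2, stood at 16.1, 10.9 and 8.98 FPKM in the same libraries and EIF2AK3, which encodes PERK, at 7.04, 10.1 and 7.85 FPKM. The activity of these kinases is set by binding and phosphorylation, which RNA does not show. Of 17 chaperone and folding genes of the endoplasmic reticulum, a list made after the values of the members were seen, 5 were lower and 0 higher in dual-resistant cells than in vehicle, with a median of -0.56. Among them HERPUD1, a gene of protein degradation at the reticulum, stood at 29.3 FPKM in dual-resistant and 112 in vehicle cells. The chaperone gene HSPA5 stood at 231 FPKM in dual-resistant, 470 in erlotinib-resistant and 448 in vehicle cells. In dual-resistant cells HSPA5 was 1.93-fold lower than in vehicle, short of a call, and 2.03-fold lower than in erlotinib-resistant cells.

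Of 9 other folate and glycine enzyme genes compared, 2 were higher and 1 lower in dual-resistant cells than in vehicle, with a median of -0.16. Of all genes compared, 11.0% were higher and 10.4% lower. TYMS, the thymidylate synthase of DNA synthesis, stood at 54.6 FPKM in dual-resistant, 20.0 in erlotinib-resistant and 5.54 in vehicle cells, the opposite of SHMT2 and MTHFD2. ALDH1L2, a mitochondrial folate enzyme, stood at 1.15, 0.624 and 6.40 FPKM in the same libraries. GLDC, the glycine decarboxylase, was above 1 FPKM only among dual-resistant cells, at 2.16 FPKM against 0.365 FPKM in vehicle cells, so the filter fixed its direction.

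**Figure D4:**
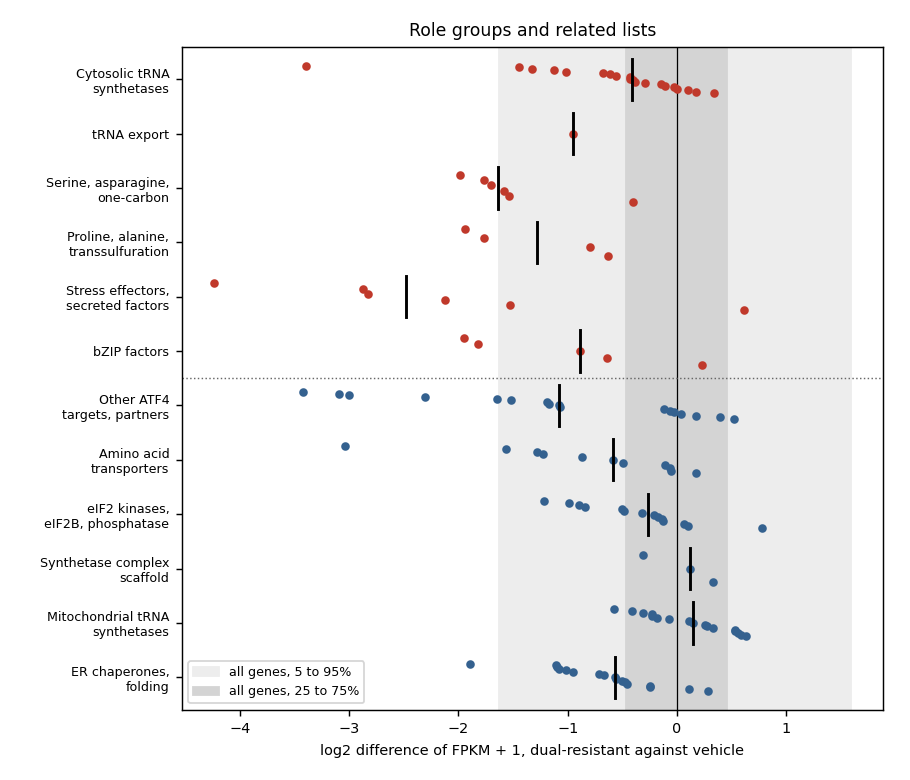
Log2 difference of FPKM + 1 between dual-resistant and vehicle cells for each gene of the role groups of the 42 genes (upper 6 rows) and of related lists (lower 6 rows), with a black bar at each median and shaded bands for the middle of all 13378 genes compared. The medians run from -2.48 for the stress effectors to -0.42 for the cytosolic synthetases among the 42 genes, and from -1.08 for other ATF4 targets to 0.15 for the mitochondrial synthetases among the related lists.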

How the data were processed

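Per the submitters' processing notes, TopHat 1.3, Cufflinks 1.3 and the build GRCh37 were used. The values are FPKM (fragments mapped, scaled by transcript length and by library) as deposited by the authors, 1 column for each of the 3 libraries. The sources used here do not give the gene set, program settings or strandedness. Rows with one symbol were added up. Genes with at least 1 FPKM in a library and no missing cell were compared as log2 differences of FPKM + 1, which understate the differences of low genes. Genes were called by size alone, at a difference of 1. Starts count from 0 in the table and from 1 here. No counts were given. Judged from the lowest values of single-exon genes, each FPKM of a 1 kb gene rested on roughly 43.1, 46.9 and 67.1 fragments in the dual-resistant, erlotinib-resistant and vehicle libraries. Promoter windows came from RefSeq (GRCh38.p14), matched by Entrez ID, and the sequences of 2 windows are not reported here. All 42 members were named. The plan was to name up to 4 genes of each related list, chosen for the size of their difference. For several lists more genes were named, and some were named for contrast after their values were seen. The members and lists were chosen with earlier results of these data known. The calculation was checked on simulated data with planted differences and no noise, which does not measure the variation between libraries. pandas 2.3.3 and numpy 2.4.6 were used.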

Additional observations from a re-analysis of the deposited data

How the results depend on the processing

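No paired analysis was possible because each population has 1 library, and no library could be left out. The counts of the 42 genes in each comparison stayed within 1.5 times under the 8 planned settings. With the sums of FPKM made equal, the median of the 42 was -0.0064 for the erlotinib-resistant against vehicle and -0.58 for the dual-resistant against vehicle, and the counts of all genes that were higher were 953 and 2448 in these comparisons. Equal sums also raised every value, so the pseudocount and the minimum had less weight there. Why the deposited sums differ was not tested. For all genes, a pseudocount of 0.1 FPKM gave 856 higher in the erlotinib-resistant library against vehicle. A pseudocount of 5 FPKM gave 167 higher and 355 lower for the erlotinib-resistant against vehicle, 592 higher and 457 lower for the dual-resistant against erlotinib-resistant, and 686 higher and 747 lower for the dual-resistant against vehicle, since it shrinks low genes. Of single members, 8 values over all comparisons and planned settings crossed 2-fold and 1000 did not, those of FARSB, SHMT2, MARS and YARS, and none changed its direction once called. Medians of the role groups moved by over 0.1 on the log2 scale in 12 cases with equal sums and in 3 with a pseudocount of 5 FPKM, all with their sign kept. Leaving out the 7 members that overlap another expressed gene, a setting added after the data were seen, left 1 gene, STC2, higher in the dual-resistant than in the erlotinib-resistant library in place of 2. Leaving out WARS, also added then, kept every count of members within 1.5 times.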
